A study of Homo sapiens with 12 samples.

Results

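The genes described here encode 10 enzymes that make, interconvert or break down ceramide, sphingosine and sphingosine 1-phosphate: SPHK1, SPHK2, SGPP1, SGPL1, CERS2, CERS5, CERS6, ASAH1, SPTLC1 and SPTLC2. They were found by gene symbol among the 60664 genes of the deposited expression table, and each of the 10 symbols matched 1 row. The members were selected on the levels in all 12 libraries and on the difference between miR-628-3p and control in both cell lines, with those values in view. Their levels, fold changes under miR-628-3p and differences between the lines are therefore given as a description, with no test.

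The study measured messenger RNA in 2 lines of human hepatocellular carcinoma cells, Huh7 and MHCC97H, to see how gene expression differs when miR-628-3p is overexpressed. One group of Huh7 cells had been transfected with a miR-628-3p mimic, a synthetic RNA that acts as the mature microRNA, and its control group with a negative control mimic (mimics-NC). A group of MHCC97H cells carried the vector pGreen-628, and its control group an empty vector. Each of the 4 groups has 3 libraries of poly-A RNA. The labels call the controls of both lines wild type, and give no time after transfection, no dose and no statement of whether vector cells were pooled or came from 1 clone. Nothing says that the libraries came from separate cultures, so p-values measure only the spread between these libraries, which may be technical. Delivery differs between the lines and cannot be told apart from the line.

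Ceramide is the central sphingolipid. Serine palmitoyltransferase starts its synthesis in the endoplasmic reticulum, ceramide synthases add the fatty acyl chain, and ceramidases release sphingosine from it. Sphingosine kinases turn sphingosine into sphingosine 1-phosphate, a lipid signal that acts on its own family of receptors, and a phosphatase or a lyase removes it. In many tumours, liver cancer included, the balance between ceramide, often linked to growth arrest and death, and sphingosine 1-phosphate, often linked to growth and survival, has been studied as a control point.

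The microRNA that was raised is printed first, as RefSeq gives it for GRCh38.p14 (chr15:55372954-55372974, minus strand), because its seed, bases 2 to 8 from the 5′ end and in capitals, sets which messenger RNAs it can pair with. A second line shows the sole match to that seed in the longest annotated 3′ UTR of each of the 10 enzyme genes. It lies in SGPP1 on chromosome 14, with the matched bases in capitals. Other annotated 3′ UTRs of these genes were not searched.
miR-628-3p: uCUAGUAAgaguggcagucga
SGPP1 3′ UTR site: attgaattgcgtaaTTACTAGA

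The SGPP1 match begins at base 502 of a UTR of 1891 bases in GENCODE release 29 and is an 8mer, TTACTAGA, which holds the match to the whole seed, TTACTAG, followed by A. Only the sense strand of the UTR was searched, and the 8mer also counts as a match to the shorter forms TTACTAG and TACTAGA. Of 19145 annotated 3′ UTRs, the longest of each gene, 2.36% hold TTACTAGA, 6.80% hold TTACTAG, 6.64% hold TACTAGA and 10.6% hold any of these. SPHK1 has a 3′ UTR of 274 bases and ASAH1 one of 1542 bases, and these letters are not in either of them. A match is a description of the sequence, and was not measured as a site of action.

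Depth was even, between 16472932 and 19578875 reads per library, worked back from the deposited values. The reads behind a single enzyme gene ran from 62 in the lowest library of SPHK2, a counting error of 12.7%, to 10323 in the highest library of CERS2, where it is 0.984%. These errors cover counting only. The annotated MIR628 gene had 0 reads in every library, which allows up to 3, and since poly-A selection misses mature microRNAs, these libraries do not check the rise of miR-628-3p itself. All 8 hepatocyte and hepatocellular carcinoma markers reached 1 FPKM, the fragments of a gene scaled to its exon length and to the library total, in Huh7. Of the same 8 markers, 7 reached it in the MHCC97H miR-628-3p vector and 6 in the empty vector, with a summed level of only 62.7 to 66.2 and 37.9 to 40.4 FPKM. In Huh7 that sum was 11351 to 12619 FPKM with the mimic and 10421 to 11292 with the control mimic.

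Marker sums of other cell types also differed between groups of a line. In Huh7 the 5 fibroblast markers, 2 of them at 1 FPKM or more in each group, summed to 61.3 to 66.1 FPKM with the mimic and 44.0 to 55.7 with the control. The same 5 markers in MHCC97H summed to 2.42 to 3.13 FPKM with the miR-628-3p vector and 1.71 to 2.11 with the empty vector. Of these LUM, the only 1 at 1 FPKM or more, averaged 2.68 and 1.82 FPKM in that order. In MHCC97H the 4 endothelial markers, 2 of them at 1 FPKM or more, summed to 9.0 to 9.51 FPKM with the miR-628-3p vector and 5.83 to 6.59 with the empty vector. The Huh7 sum rested on LUM, at 56.9 ± 3.17 FPKM with the mimic and 44.6 ± 6.56 with the control mimic, while COL1A2 was at 5.55 ± 0.765 and 5.82 ± 0.294 FPKM in the same order. The endothelial difference in MHCC97H rested on PECAM1, at 7.35 ± 0.263 FPKM with the miR-628-3p vector and 4.34 ± 0.235 with the empty vector. KDR was at 0 in all Huh7 libraries, and VWF in those of the control mimic. The part of these markers in the results that follow was not tested.

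Within a group the 10 genes spanned about 2 orders of magnitude on the FPKM scale, which is per length and so allows genes to be compared. CERS2 stood highest in every group, followed by ASAH1, SPTLC1, CERS6 and CERS5, and SPHK2 stood lowest. In the MHCC97H miR-628-3p vector ASAH1 and SPTLC1 overlapped between libraries, at 70.5 ± 8.67 and 58.2 ± 6.17 FPKM (SD, n = 3). The middle of the order was close: SGPL1, SGPP1 and SPHK1 averaged 6.83, 6.45 and 6.08 FPKM with the Huh7 control mimic, and the last 2 overlapped. SPTLC2 and SPHK2 also overlapped there, and SGPP1, SPTLC2 and SGPL1 overlapped with the neighbour in the order in the MHCC97H miR-628-3p vector.

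**Figure D1:**
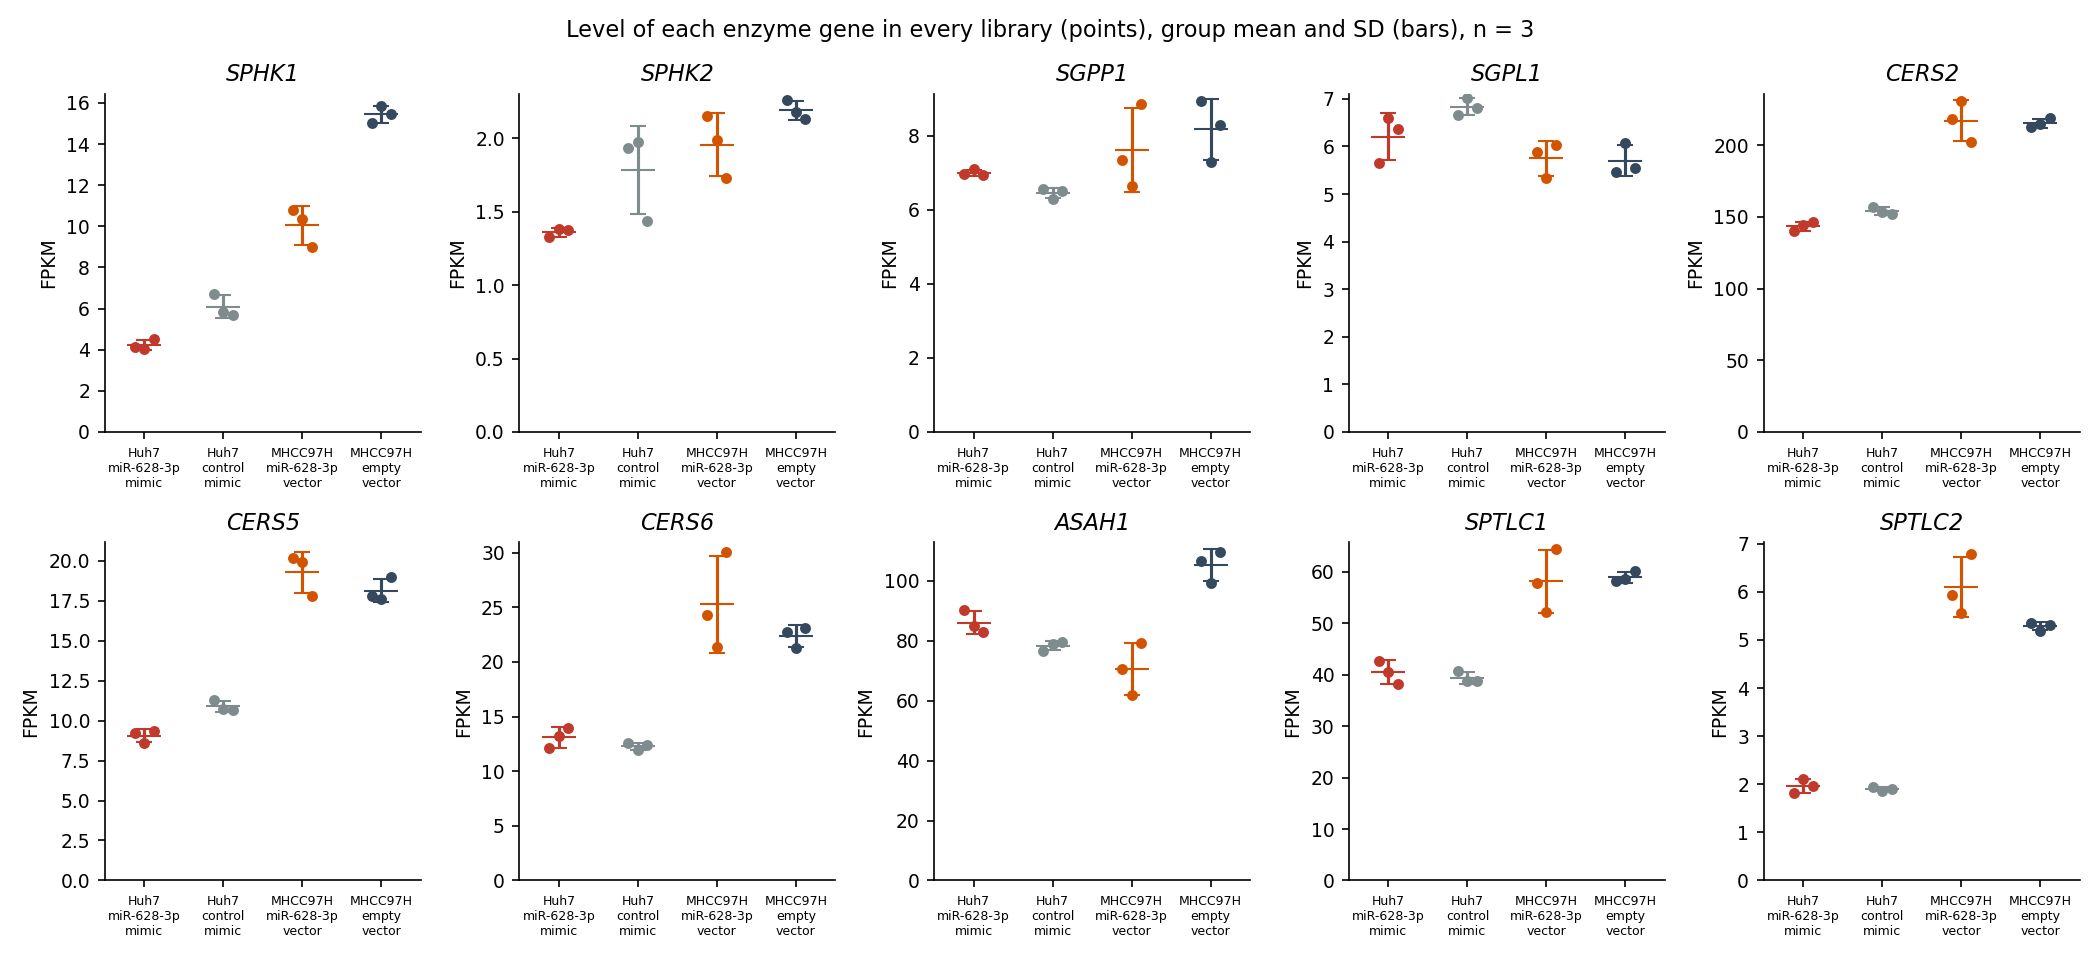
Level in FPKM (y axis, linear from 0) of each of the 10 enzyme genes in the 4 groups (x axis); points are the 3 libraries of a group, the horizontal bar is their mean and the whiskers are 1 SD. SPHK1 lies below its control in both lines, at 4.02 to 4.50 against 5.68 to 6.73 FPKM in Huh7 and at 8.98 to 10.8 against 15.0 to 15.8 in MHCC97H, while ASAH1 lies above its control in Huh7 and below it in MHCC97H.

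The kinases come first. SPHK1, the mainly cytosolic sphingosine kinase (ENSG00000176170, GRCh38 chromosome 17, 76376584 to 76387860, plus strand), had 4.14, 4.02 and 4.50 FPKM in Huh7 cells with the miR-628-3p mimic, against 6.73, 5.83 and 5.68 FPKM with the control mimic. In MHCC97H it had 10.8, 10.3 and 8.98 FPKM with the miR-628-3p vector, against 15.0, 15.8 and 15.5 FPKM with the empty vector. All 3 miR-628-3p libraries lay below all 3 controls in each line, and in such bulk samples less RNA per cell and fewer expressing cells cannot be told apart. The log2 fold change, taken on log2(FPKM + 1), was -0.44 (SE 0.077) in Huh7 and -0.58 (SE 0.080) in MHCC97H, and the mean FPKM was 0.694 and 0.650 of control.

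SPHK2, the kinase found mainly in the nucleus and in organelles (ENSG00000063176, chromosome 19, 48619291 to 48630717, plus strand), was the least abundant of the 10. It had 1.33, 1.38 and 1.38 FPKM with the mimic in Huh7, against 1.93, 1.98 and 1.44 FPKM with the control mimic. These groups did not overlap, but the lowest control library lay close to the mimic libraries, and 62 to 104 reads stood behind each value. Its log2 fold change was -0.23 (SE 0.098) in Huh7. In MHCC97H it had 2.15, 1.99 and 1.73 FPKM with the miR-628-3p vector and 2.26, 2.18 and 2.13 FPKM with the empty vector, so the groups overlapped, and the log2 fold change was -0.11 (SE 0.087).

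As a share of the 2 kinases' summed FPKM, SPHK1 made up 75.6 ± 1.09% with the mimic and 77.4 ± 2.57% with the control mimic in Huh7 (SD, n = 3 each), ranges that overlapped. In MHCC97H the share was 83.7 ± 0.284% with the miR-628-3p vector and 87.6 ± 0.558% with the empty vector, with no overlap. Thus SPHK1 was the main kinase transcript in each group.

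Each kinase gene overlaps a gene on the other strand, and no source used here states whether strand was used in counting. PRPSAP1 shares 59 exonic bases with SPHK1, and averaged 17.2 ± 0.394 FPKM with the mimic and 19.5 ± 1.20 with the control mimic in Huh7, and 24.4 ± 0.563 with the miR-628-3p vector and 25.1 ± 0.431 with the empty vector in MHCC97H. DBP shares 661 exonic bases with SPHK2, and averaged 1.10 ± 0.0922 against 1.38 ± 0.313 FPKM in Huh7 and 5.14 ± 0.826 against 3.90 ± 0.580 FPKM in MHCC97H, miR-628-3p first. SETDB1 shares 948 exonic bases with CERS2. Without strand, reads in these shared bases cannot be assigned to 1 gene.

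Sphingosine 1-phosphate is removed by the phosphatase SGPP1, which returns it to sphingosine, and by the lyase SGPL1, which cleaves it for good. SGPP1 (ENSG00000126821, chromosome 14, 63684216 to 63728065, minus strand), the enzyme gene with the seed match printed above, had 6.97, 7.08 and 6.94 FPKM with the Huh7 mimic, against 6.55, 6.29 and 6.51 FPKM with the control mimic. The MHCC97H values were 7.33, 6.64 and 8.86 FPKM with the miR-628-3p vector, against 8.93, 7.29 and 8.29 FPKM with the empty vector. It was thus slightly higher without overlap in Huh7 (log2 fold change 0.10, SE 0.054) and overlapped its control in MHCC97H (-0.09, SE 0.11).

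SGPL1 (ENSG00000166224, chromosome 10, 70815948 to 70881184, plus strand) had 5.65, 6.60 and 6.36 FPKM with the Huh7 mimic, against 6.67, 7.03 and 6.81 FPKM with the control mimic. The Huh7 groups met almost edge to edge, and the log2 fold change was -0.12 (SE 0.068). Its MHCC97H groups overlapped at 5.75 ± 0.363 and 5.69 ± 0.325 FPKM (SD, n = 3), miR-628-3p and empty vector in that order.

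ASAH1, the acid ceramidase that releases sphingosine from ceramide in lysosomes (ENSG00000104763, chromosome 8, 18055992 to 18084998, minus strand), was the member whose libraries lay on opposite sides of control in the 2 lines. It had 90.2, 84.8 and 82.9 FPKM with the mimic in Huh7, against 76.6, 78.9 and 79.5 FPKM with the control mimic. In MHCC97H it had 70.5, 61.9 and 79.2 FPKM with the miR-628-3p vector, against 106.6, 99.4 and 109.7 FPKM with the empty vector. The groups of neither line overlapped, and the fall below control in MHCC97H was the larger difference. Its log2 fold change was 0.13 (SE 0.050) in Huh7 and -0.58 (SE 0.095) in MHCC97H, where the mean FPKM was 0.671 of control.

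Ceramide synthases differ in the acyl chain they attach. CERS2 makes ceramides with very long chains and is the main family member of liver, while CERS5 and CERS6 make ceramides with the chain of palmitate. CERS2 (ENSG00000143418, chromosome 1, 150960583 to 150975003, minus strand) had 140.2, 144 and 146 FPKM with the Huh7 mimic, against 157, 154 and 152 FPKM with the control mimic, a small difference without overlap (log2 fold change -0.10, SE 0.045). In MHCC97H its groups overlapped at 217 ± 14.3 FPKM with the miR-628-3p vector and 215 ± 3.16 with the empty vector.

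CERS5 (ENSG00000139624, chromosome 12, 50129289 to 50167533, minus strand) had 9.21, 8.58 and 9.33 FPKM with the Huh7 mimic, against 11.3, 10.7 and 10.7 FPKM with the control mimic. All mimic libraries lay below all controls, with a log2 fold change of -0.25 (SE 0.057). In MHCC97H CERS5 overlapped its control at 19.3 ± 1.28 and 18.1 ± 0.731 FPKM (0.08, SE 0.071), miR-628-3p vector and empty vector in that order.

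CERS6 (ENSG00000172292, chromosome 2, 168456249 to 168775134, plus strand) overlapped its control in both lines. It averaged 13.1 ± 0.945 FPKM with the mimic and 12.3 ± 0.312 with the control mimic in Huh7. Its MHCC97H libraries had 24.3, 21.4 and 30.1 FPKM with the miR-628-3p vector, the widest spread of the 3 synthases relative to the mean, and 22.7, 21.3 and 23.1 FPKM with the empty vector. Of the summed FPKM of CERS1 to CERS6, CERS2 made up 82.8 ± 0.352% with the mimic and 82.9 ± 0.217% with the control mimic in Huh7, and 82.0 ± 1.84% with the miR-628-3p vector and 83.2 ± 0.425% with the empty vector in MHCC97H. The share of CERS2 was thus nearly alike in the 4 groups, and CERS3 was at 0 in Huh7. CERS4 made up 4.21 ± 0.363% with the mimic and 4.34 ± 0.0701% with the control mimic in Huh7, against 1.09 ± 0.152% with the miR-628-3p vector and 1.17 ± 0.0286% with the empty vector in MHCC97H.

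Serine palmitoyltransferase needs SPTLC1, a subunit without catalytic activity of its own, and a catalytic partner such as SPTLC2. SPTLC1 (ENSG00000090054, chromosome 9, 92000087 to 92115413, minus strand) overlapped its control in both lines, at 40.5 ± 2.31 FPKM with the mimic and 39.4 ± 1.19 with the control mimic in Huh7, and at 58.2 ± 6.17 with the miR-628-3p vector and 59.0 ± 1.07 with the empty vector in MHCC97H. SPTLC2 (ENSG00000100596, chromosome 14, 77505997 to 77616637, minus strand) overlapped in Huh7 at 1.96 ± 0.149 FPKM with the mimic and 1.90 ± 0.0409 with the control mimic. With the MHCC97H vectors it had 5.93, 5.57 and 6.79 FPKM with the miR-628-3p vector, against 5.35, 5.20 and 5.30 FPKM with the empty vector, higher in every library (log2 fold change 0.17, SE 0.083).

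The ratio of SPTLC1 to SPTLC2 on the FPKM scale was 20.7 ± 2.46 with the mimic and 20.8 ± 0.339 with the control mimic in Huh7. It was 9.54 ± 0.189 with the miR-628-3p vector and 11.2 ± 0.257 with the empty vector in MHCC97H. The MHCC97H ratios did not overlap, and those of Huh7 did.

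Counted over the 10 genes, 7 had groups that did not overlap in Huh7, 2 higher and 5 lower with the mimic, beside 48.8% of the 12508 genes tested. In MHCC97H 3 did, 1 higher and 2 lower, beside 30.0% of 12670. The members were chosen with these contrasts known, so nothing is read from these counts. The median log2 fold change of the 10 was -0.04 in Huh7, where that of all genes tested was -0.05, and -0.01 in MHCC97H, against -0.04 for all genes.

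**Figure D2:**
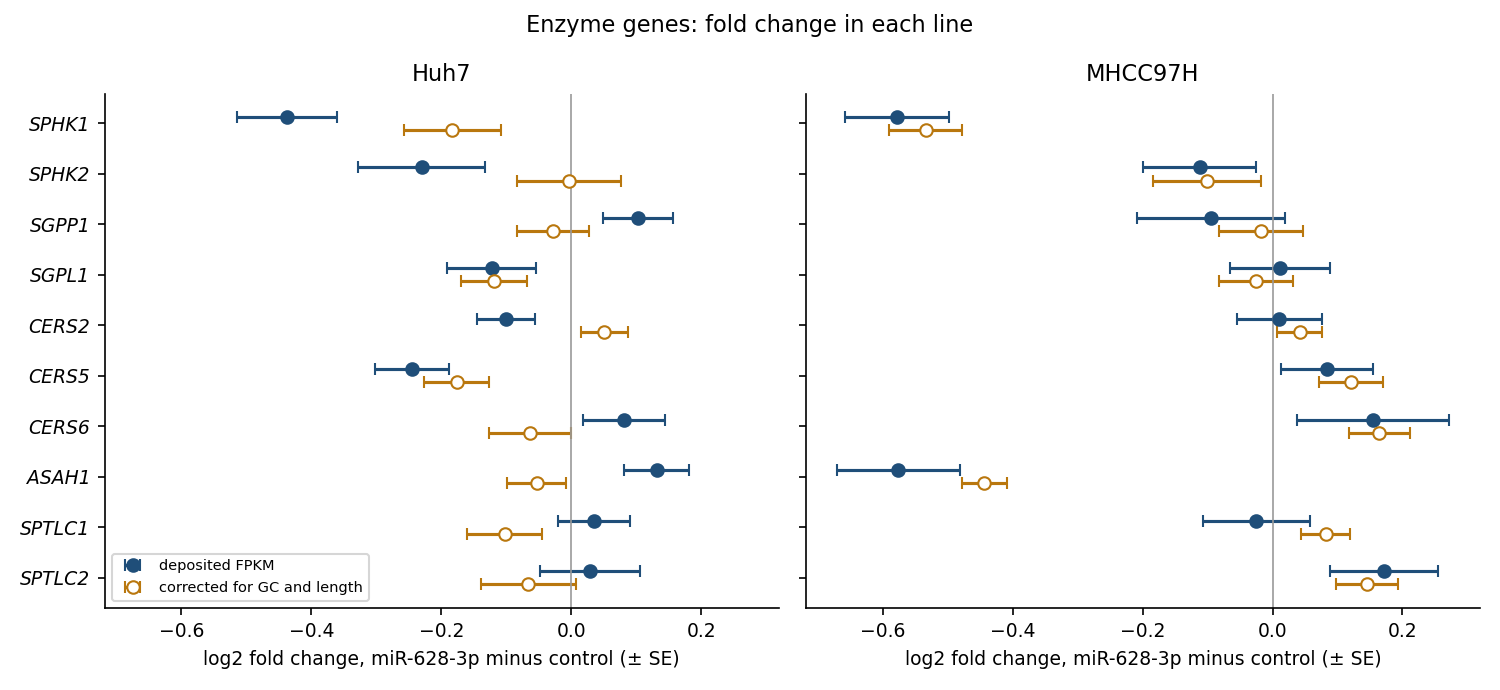
Log2 fold change, miR-628-3p minus control (x axis, whiskers 1 SE), of the 10 enzyme genes (y axis) in Huh7 (left) and MHCC97H (right), from the deposited FPKM (filled) and after a correction of each library for transcript GC content and exon length (open). In Huh7 the correction moves SPHK1 to -0.18 and SPHK2 to -0.0037, while in MHCC97H SPHK1 stays at -0.53 and ASAH1 at -0.44.

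Fold change moved with base composition across all genes of Huh7. Over 12452 genes, Spearman's rho between the log2 fold change and the GC content of the longest transcript was -0.72 in Huh7, and it was 0.17 over 12630 genes in MHCC97H. These are descriptions across genes, which share libraries and are not independent replicates. SPHK1 and SPHK2 have the GC-richest transcripts of the 10 members, at 65.5% and 63.2%, and ASAH1 the poorest, at 37.3%. SGPP1, SPTLC1 and CERS6 lie between 39.8% and 41.6%.

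After each library was corrected, blind to group, by splines on GC content and exon length, the Huh7 log2 fold change of SPHK1 was -0.18 (SE 0.075) and that of CERS5 -0.18 (SE 0.050). The same correction left SPHK2 at -0.0037 and turned the sign of 6 other members there: CERS2 to 0.05, ASAH1 to -0.05, SGPP1 to -0.03, CERS6 to -0.06, SPTLC1 to -0.10 and SPTLC2 to -0.07. In MHCC97H it left SPHK1 at -0.53 (SE 0.056), ASAH1 at -0.44 (SE 0.034) and SPTLC2 at 0.15 (SE 0.048), and turned the sign of SGPL1, to -0.03, and of SPTLC1, to 0.08, both of which overlap their controls. SPTLC1 in MHCC97H also turned with median scaling, to 0.01, and with quantile normalization, to 0.04. Hence SPHK1 was lower than control in both lines with and without the correction, the direction of ASAH1 in Huh7 was not kept, and that in MHCC97H was.

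**Figure D3:**
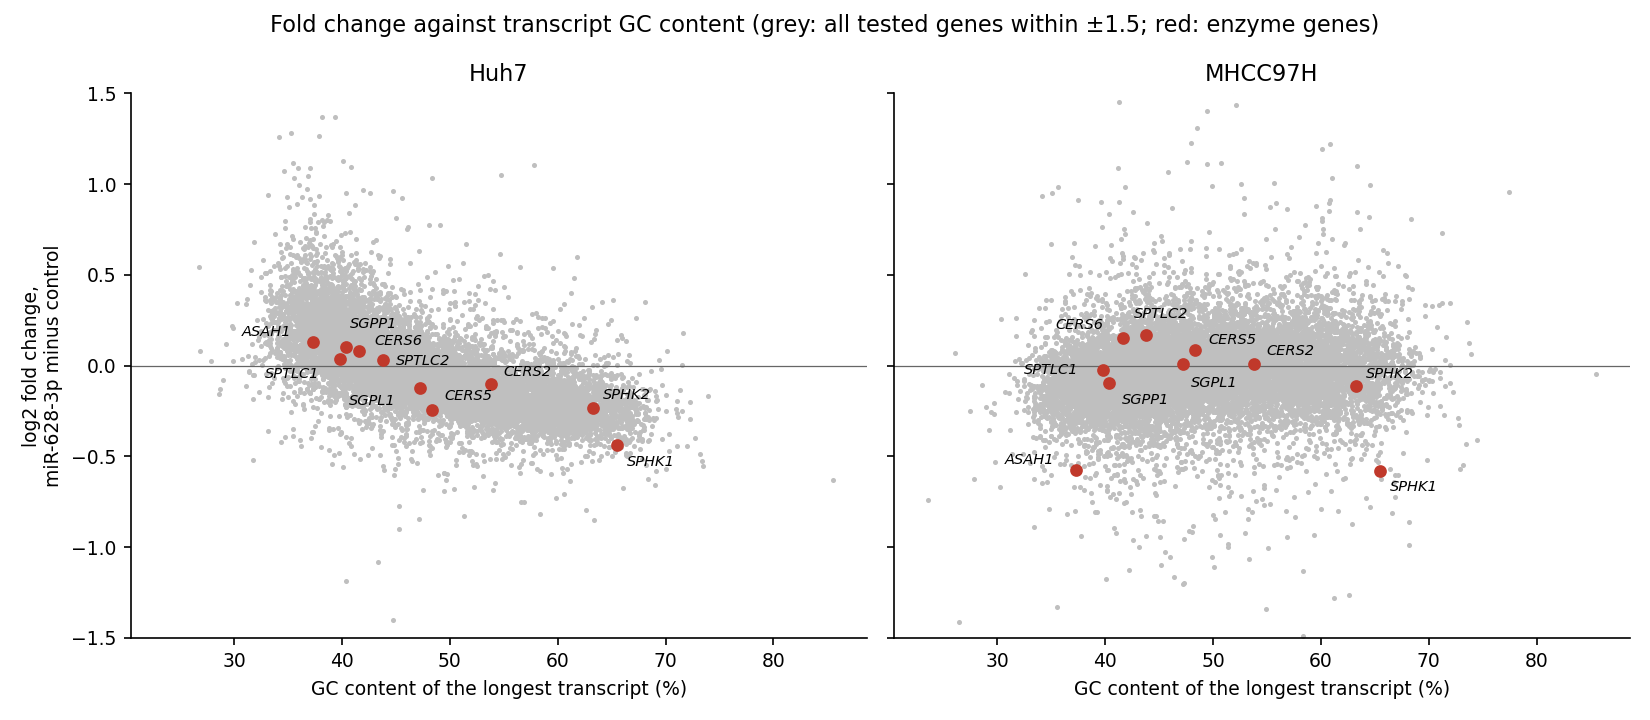
Log2 fold change, miR-628-3p minus control (y axis), against the GC content of the longest transcript in percent (x axis) for all tested genes (grey) and the 10 enzyme genes (red) in Huh7 (left) and MHCC97H (right). In Huh7 the grey cloud slopes down with GC content and the enzyme genes lie along it, SPHK1 at -0.44 toward its lower edge; in MHCC97H SPHK1 and ASAH1, both at -0.58, lie at opposite ends of the GC scale.

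The levels of the same genes in the control cells of the lines were also in view when the members were chosen, and are described here without a test. Set against Huh7 cells with the control mimic, MHCC97H cells with the empty vector had 9 of the 10 enzyme genes higher and SGPL1 lower, all without overlap, beside 85.5% of 13191 genes without overlap, and nothing is read from that count. The median log2 difference of the members was 0.52, against 0.0033 over all genes tested. The line, the control agent and the delivery cannot be told apart here.

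SPHK1 was 2.54-fold higher on mean FPKM in MHCC97H controls, at 15.4 ± 0.416 FPKM, than in Huh7 controls, at 6.08 ± 0.563 (log2 difference 1.22, SE 0.065). SPTLC2 was 2.78-fold higher, at 5.29 ± 0.0809 against 1.90 ± 0.0409 FPKM (1.12, SE 0.050). After the GC and length correction SPTLC2 was at 1.09 and SPHK1 at 0.74, below CERS6 and SPTLC1. The log2 differences of the others that were higher in MHCC97H were 0.81 for CERS6, 0.68 for CERS5, 0.57 for SPTLC1, 0.48 for CERS2, 0.42 for ASAH1 and 0.30 for SGPP1. With the correction these were 0.90 for CERS6, 0.65 for CERS5, 0.80 for SPTLC1, 0.35 for CERS2, 0.64 for ASAH1 and 0.48 for SGPP1, so the order of the genes differed and the signs did not.

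SGPL1 was lower in MHCC97H, at 5.69 ± 0.325 FPKM, against 6.83 ± 0.181 in Huh7 (-0.23, SE 0.054), and was at -0.34 after the correction. SPHK2 was at 2.19 ± 0.0630 FPKM in MHCC97H and 1.78 ± 0.300 in Huh7 (0.20, SE 0.089), and after the correction its difference had the other sign, -0.27.

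**Figure D4:**
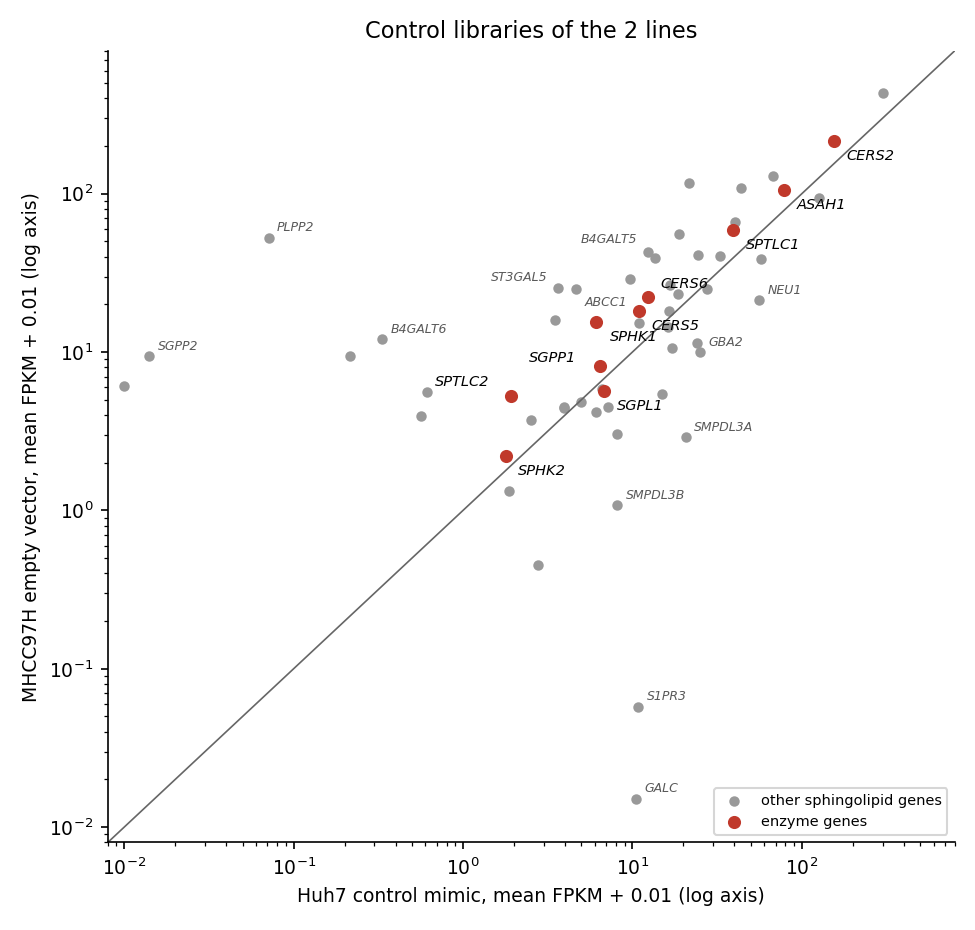
Mean FPKM + 0.01 of the 10 enzyme genes (red) and of the other tested sphingolipid genes (grey) in MHCC97H empty vector libraries (y axis, log scale) and Huh7 control mimic libraries (x axis, log scale), with the line of equal level. SPHK1 and SPTLC2 lie farthest above the line among the enzyme genes, SGPL1 lies below it, and PLPP2, SGPP2, S1PR3 and GALC lie near 0 in 1 of the lines.

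A further 60 genes of sphingolipid metabolism, listed by role, were read for what surrounds the 10 enzymes. Of these, 42 were tested in Huh7 and 45 in MHCC97H, and 11 in neither line (DEGS2, CERS1, CERS3, ACER1, ACER2, SPNS2, MFSD2B, S1PR4, S1PR5, SMPD3 and UGT8) because their mean FPKM was under 1. In Huh7, 9 of 42 changed, beside 21.1% of all genes tested, with 2 higher and 7 lower with the mimic, beside 14.4% of all genes called lower. In MHCC97H, 5 of 45 changed, beside 5.37% of all genes, with 4 higher and 1 lower, beside 3.05% called lower. Over all genes the split was 844 higher and 1798 lower in Huh7 and 294 higher and 386 lower in MHCC97H, and with median scaling 1201 and 1413 in Huh7 and 357 and 284 in MHCC97H. Their median log2 fold change was -0.08 in Huh7, against -0.05 over all genes tested, and -0.03 in MHCC97H, against -0.04. SPTSSB was called in both lines.

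SPTSSB, a small subunit that activates serine palmitoyltransferase, had 28.6, 25.4 and 25.8 FPKM with the Huh7 mimic, against 20.4, 20.7 and 23.9 FPKM with the control mimic. The MHCC97H libraries held 165, 143 and 183.6 FPKM with the miR-628-3p vector, against 117, 109 and 123 FPKM with the empty vector. It rose in every miR-628-3p library above every control of its line, by 0.29 on the log2 scale (SE 0.075, adjusted p = 0.0377) in Huh7 and by 0.49 (SE 0.098, adjusted p = 0.0342) in MHCC97H. The alternatives gave adjusted p between 0.0272 and 0.118 in Huh7 and between 0.00509 and 0.135 in MHCC97H. After the GC and length correction the values were 0.36 (adjusted p = 0.103) and 0.56 (adjusted p = 0.0115).

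Among other genes of de novo synthesis, ORMDL3, an inhibitor of the same enzyme, fell in Huh7 to 15.0 ± 1.25 FPKM with the mimic, against 18.7 ± 1.48 with the control mimic (log2 fold change -0.30, adjusted p = 0.0380). Of the other ceramidases, ACER3, which acts at alkaline pH in the Golgi and endoplasmic reticulum, rose in Huh7 to 4.72 ± 0.126 FPKM, against 3.91 ± 0.208 (0.22, adjusted p = 0.0463), and was at 0.0019 after the GC and length correction. In MHCC97H ACER3 overlapped its control, at 4.15 FPKM with the miR-628-3p vector and 4.45 with the empty vector (-0.09, adjusted p = 0.697). ACER3 is shown because it was called in Huh7 and its 3′ UTR, on chromosome 11, holds a match to the whole seed. The matched bases are in capitals.
ACER3 3′ UTR site: cattgtactgaatcTTACTAGc

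That match begins at base 6269 of 6470. A match to the whole seed was also found in SPTLC3, ASAH2 and NEU3, and only the form TACTAGA in CERS3 and CERT1. None of these genes passed the test in either line where they were tested. SPTLC3, a catalytic subunit of serine palmitoyltransferase, averaged 3.15 FPKM with the Huh7 mimic and 2.75 with the control mimic, and CERT1, the ceramide transfer protein, 12.7 and 10.99 FPKM. In the same order ASAH2 averaged 1.91 and 1.42 FPKM, and NEU3, which was lower with the mimic, 2.21 and 2.53. After the GC and length correction their Huh7 log2 fold changes were -0.03 for SPTLC3, 0.08 for CERT1, 0.09 for ASAH2 and -0.10 for NEU3. From the deposited FPKM the MHCC97H log2 fold changes were 0.07 for CERT1 and 0.0035 for NEU3. SPTLC3 and ASAH2 were not tested there.

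Of genes for sphingomyelin turnover and lipid transfer, 3 of 11 fell in Huh7, beside 14.4% of all genes called lower. They were CPTP, which carries ceramide 1-phosphate (-0.27, adjusted p = 0.0313), GLTP, which carries glycolipids (-0.25, adjusted p = 0.0334), and SMPD2, a neutral sphingomyelinase (-0.32, adjusted p = 0.0423), named after its value was seen. After the GC and length correction CPTP was at -0.02, GLTP at -0.15 and SMPD2 at -0.09, and none was called. GLTP was also lower in MHCC97H, at 12.3 ± 0.232 FPKM with the miR-628-3p vector and 14.3 ± 0.611 with the empty vector, and did not pass the test there (adjusted p = 0.108).

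Of the glycosphingolipid genes, 3 of 14 fell in Huh7, beside the same 14.4%. NEU1, the lysosomal sialidase, fell to 47.1 ± 2.54 FPKM, against 56.3 ± 1.17 with the control mimic (-0.25, adjusted p = 0.0297). GBA2, which splits glucosylceramide outside the lysosome, fell to 21.5 ± 0.188 FPKM, against 25.0 ± 0.679 (-0.21, adjusted p = 0.0302). PSAP, the precursor of the saposins that present sphingolipids to lysosomal enzymes, fell to 256 ± 16.2 FPKM, against 303 ± 9.30 (-0.24, adjusted p = 0.0355). The corrected values were -0.14 for NEU1, -0.04 for GBA2 and -0.08 for PSAP. All 9 of the Huh7 calls in this list were lost after the GC and length correction, with adjusted p of at least 0.103, and the corrected fit called 1 gene of 12452 in all, with 2889 at an unadjusted p under 0.05. Leaving out 1 Huh7 library gave 5 calls without control library 3 and 0 without any of the other 5. Over all genes these fits gave 1661 calls without control library 3 and 0 to 924 without any of the other 5.

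In MHCC97H 3 of 15 glycosphingolipid genes changed, 2 higher and 1 lower, beside 5.37% of all genes. ST3GAL5, which makes the ganglioside GM3, rose to 31.4, 33.2 and 31.1 FPKM with the miR-628-3p vector, against 26.1, 24.6 and 25.8 FPKM with the empty vector (0.31, adjusted p = 0.0290). Of the lactosylceramide synthases, B4GALT5 rose to 52.1 ± 1.03 FPKM, against 43.0 ± 1.41 (0.27, adjusted p = 0.0375), while B4GALT6 fell to 7.54, 5.89 and 9.29 FPKM, against 12.03, 11.3 and 12.9 FPKM (-0.63, adjusted p = 0.0469). The 2 synthases thus moved in opposite directions, and B4GALT5 was the more abundant in FPKM.

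ALDH3A2, the dehydrogenase that clears the fatty aldehyde made by SGPL1, rose in MHCC97H to 131 ± 5.65 FPKM, against 108 ± 2.06 (0.28, adjusted p = 0.0393). The GC and length correction gave 11 calls in the list in MHCC97H, beside 1981 of 12630 genes in all. All 5 genes called in MHCC97H before the correction held, at adjusted p between 0.000774 and 0.0169. None of the 5 was called when any empty vector library or miR-628-3p library 1 was left out. There the list had 0 calls, and all genes had 142 to 185. Without miR-628-3p library 2 the list had 5 calls, beside 692 of 12700 genes. Without library 3 it had 10, beside 1604 of 12679 genes.

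**Figure D5:**
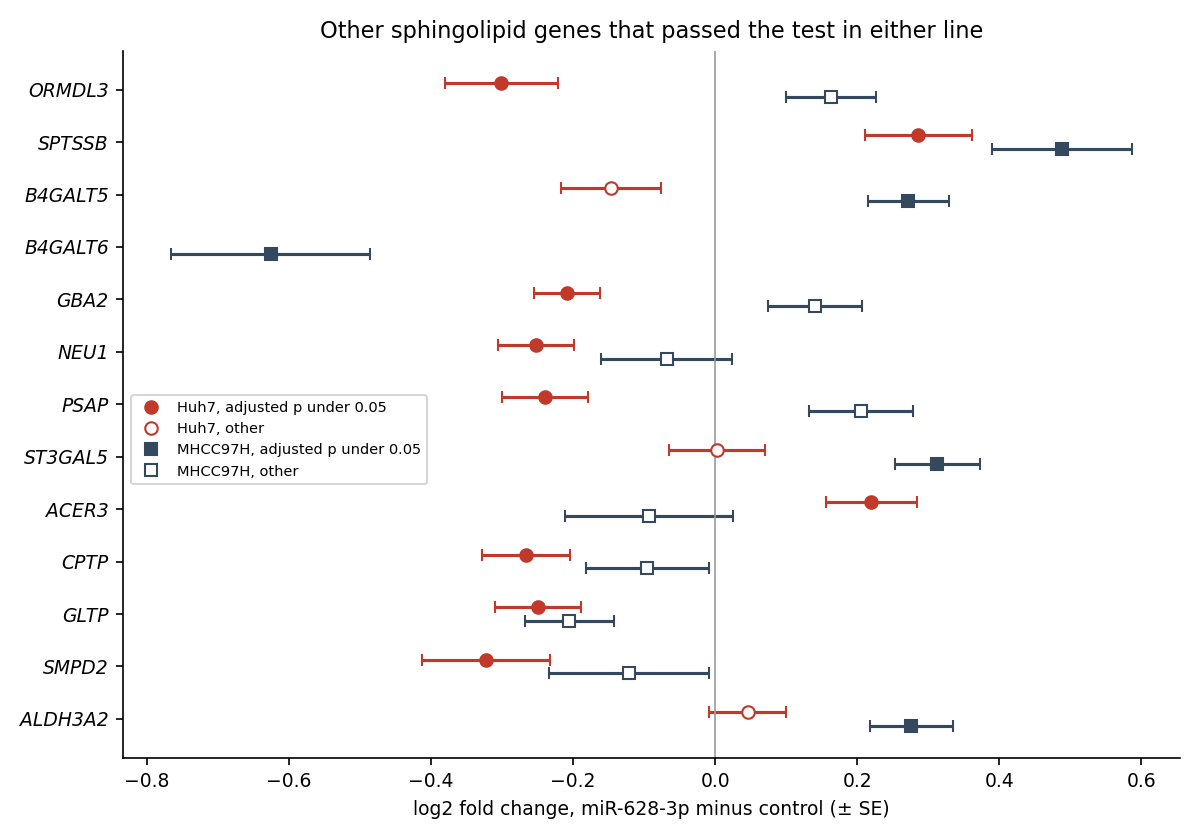
Log2 fold change, miR-628-3p minus control (x axis, whiskers 1 SE), of the 13 other sphingolipid genes (y axis) that passed the test in Huh7 (circles) or MHCC97H (squares); filled symbols have an adjusted p under 0.05. SPTSSB is the gene with both symbols filled, at 0.29 and 0.49; B4GALT6 was not tested in Huh7, where its mean was under 1 FPKM.

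Whether an effect differed between the lines was tested by an interaction term, the effect in MHCC97H minus that in Huh7, for the 48 other sphingolipid genes with a mean of at least 1 FPKM over all libraries. It was called for 7, beside 12.9% of 13171 genes. The 5 with a positive term were ORMDL3 (0.46, adjusted p = 0.0176), PSAP (0.44, 0.0142), B4GALT5 (0.42, 0.0135), GBA2 (0.35, 0.0131) and ST3GAL5 (0.31, 0.0273). A negative term was called for ORMDL1 (-0.40, 0.0235) and B4GALT6 (-0.64, 0.0298). B4GALT6 passed the filter through MHCC97H alone and was at about 0.3 FPKM in Huh7, so its term restates its MHCC97H fold change and does not bear on a difference between the lines. SPTSSB was not among them. The terms of ORMDL1, B4GALT6 and GBA2 were lost with the GC and length correction, at adjusted p of 0.840, 0.139 and 0.0916. Leaving out 1 library left 3 to 11 calls, the fewest without MHCC97H empty vector library 1 and the most without miR-628-3p vector library 3. Over all genes these fits gave 650 calls of 13177 and 4670 of 13178, in that order.

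Between the control cells, 45 of the 48 tested genes of the list differed, 27 higher and 18 lower in MHCC97H, beside 84.5% of all genes, with 42.3% higher and 42.2% lower. Of the 48, 10 averaged under 1 FPKM in 1 of the lines, 7 in Huh7 and 3 in MHCC97H, and so passed the filter through the other line and had to differ, so the count supports nothing about the list. The genes for breakdown, export and reception of sphingosine 1-phosphate included 3 that were near 0 in 1 of the lines. The second phosphatase, SGPP2, averaged 9.44 ± 0.355 FPKM in MHCC97H controls, against a mean of 0.00406 in Huh7 controls, where 1 library had 1 read. The lipid phosphatase PLPP2 averaged 52.7 ± 4.73 FPKM, against 0.0614 ± 0.0532. The receptor S1PR3 averaged 0.0477 ± 0.0253 FPKM in MHCC97H and 10.8 ± 0.361 in Huh7.

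ABCC1, a transporter that can export sphingosine 1-phosphate, was at 25.0 ± 0.752 FPKM in MHCC97H controls and 4.65 ± 0.0568 in Huh7 controls (log2 difference 2.20, adjusted p = 5.76e-09). ST3GAL5 (2.52) and B4GALT5 (1.73) were higher in MHCC97H controls too, each at an adjusted p of 2.63e-08 or less. B4GALT6 (3.30) averaged 0.324 FPKM in Huh7 controls and passed the filter through MHCC97H alone, so it had to differ. GALC, the lysosomal galactosylceramidase, had 1 read over the 3 MHCC97H control libraries and 10.5 ± 0.482 FPKM in Huh7. SMPDL3A (-2.48) and SMPDL3B (-2.14), relatives of acid sphingomyelinase, NEU1 (-1.36) and GBA2 (-1.24) were lower in MHCC97H controls.

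The genes whose pattern was most like that of each kinase were ranked by Pearson's r on log2(FPKM + 1) over the 12 libraries, after each line was centred, among 13171 genes. For SPHK1 they were ADI1 (0.99), KCTD15 (0.97) and QPRT (0.97). For SPHK2 they were PRR5 (0.95), ZNF576 (0.94) and ITPA (0.94). The 12 libraries share lines, groups and base composition, and r is given as a description. ADI1, an enzyme of methionine salvage, averaged 52.0 FPKM with the mimic and 62.3 with the control mimic in Huh7, and 40.3 with the miR-628-3p vector and 51.9 with the empty vector in MHCC97H. The transcript GC content was 43.7% for ADI1, 55.1% for KCTD15 and 57.4% for QPRT, against 65.5% for SPHK1.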

How the data were processed

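The authors deposited FPKM values for 60664 genes in 12 libraries, scaled to exon length and to the total of counted fragments. HISAT2, HISAT and HTSeq are named with the build GRCh38 in the submitters' processing notes, without versions. Per the labels' protocols the libraries kept strand by dUTP; no source used here says whether counting used it, or names a batch. Read counts were recovered from the step sizes of FPKM multiplied by exon length, and 100% of them came out whole (tolerance 0.01 reads). No 2 libraries of the same group agreed within sampling noise.

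Tests were two-sided, by limma 3.58.1 (R 4.3.3), with a mean-variance trend. They used log2(FPKM + 1), which pulls the fold change of low genes toward 0, wherever the compared libraries averaged 1 FPKM or more, with Benjamini-Hochberg adjustment over all genes tested; a gene was called at an adjusted p under 0.05. The interaction term came from a fit of all 12 libraries. GC content and 3′ UTRs came from GENCODE release 29. The fits were tested on simulated data. Python 3.11.15, pandas 2.3.3, scipy 1.17.1 and matplotlib 3.10.9 were used.

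The members, the 60 other sphingolipid genes and the markers were chosen with earlier results of these data known. Named are all members, up to 6 called genes of the list per direction and comparison by smallest p, any called in both lines, and the 3 genes most like each kinase. Alternatives changed the pseudocount, filter, scaling, variance model, GC and length correction, joint fit, replicate block and library left out. The leukocyte markers are not reported here.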

Additional observations from a re-analysis of the deposited data

Results flagged for a closer look

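The interaction term between miR-628-3p and the line passed the test for 7 of 48 other sphingolipid genes, beside 12.9% of 13171 genes. The term, the effect in MHCC97H minus that in Huh7 on the log2 scale, was 0.4644 for ORMDL3, whose log2 fold change was 0.16 in MHCC97H and -0.30 in Huh7. For PSAP it was 0.4446, from 0.20 in MHCC97H and -0.24 in Huh7. For GBA2 it was 0.3488, from 0.14 and -0.21 in the same order of lines. The positive MHCC97H values of these 3 genes did not pass the test on their own (adjusted p = 0.184 for ORMDL3, 0.155 for PSAP and 0.267 for GBA2 in limma), and their Huh7 falls were lost with the GC and length correction (-0.14 for ORMDL3, -0.08 for PSAP and -0.04 for GBA2). B4GALT5 had a term of 0.4182, from 0.27 in MHCC97H and -0.15 in Huh7, and ST3GAL5 one of 0.3099, from 0.31 and 0.00. B4GALT6 had a term of -0.6377, from -0.63 in MHCC97H, and was at about 0.3 FPKM in both Huh7 groups; it passed the filter through MHCC97H alone, so its term restates the MHCC97H fold change and does not bear on a difference between the lines. ORMDL1 had a term of -0.3971, from -0.24 in MHCC97H and 0.15 in Huh7. Neither value passed the test on its own (adjusted p = 0.0907 and 0.115 in limma). With the GC and length correction the term of ORMDL1 was -0.03 (adjusted p = 0.840). The terms of GBA2 and B4GALT6 were not called with the correction either.

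ASAH1 stood out because all 3 MHCC97H miR-628-3p libraries lay below their controls and all 3 Huh7 mimic libraries above theirs, with a difference between the effects of -0.7074. After the GC and length correction its log2 fold change was -0.05 in Huh7 and -0.44 in MHCC97H, so the opposite directions were not kept. The difference between the effects was not tested, since the enzyme genes were chosen with these contrasts known.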

How the results depend on the processing

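Of 480 log2 fold changes of the enzyme genes under the alternatives, 464 stayed within 1 SD or on their side of the threshold, 13 moved, 2 passed the threshold newly and 1 reversed; counted by sign alone, 19 of the 480 changed sign. The reversed value was SPHK2 between the control cells, 0.20 as reported and -0.27 with the GC and length correction. Nothing is read from the counts of enzyme genes, which were chosen with these contrasts known. Those called in Huh7 numbered 2, and 0 with the GC and length correction, 1 with the FPKM filter at 0.1, 0 with no filter, 1 with the replicate block and 0 to 1 without 1 library. In MHCC97H they numbered 2, and 1 with no filter and 0 to 2 without 1 library. Between control cells they numbered 9, and 9 to 10 without 1 library. Of all genes tested, 21.1% were called in Huh7, 5.37% in MHCC97H and 84.5% between control cells. The Huh7 calls over all genes fell to 1 of 12452 with the correction and 674 of 19349 with the filter at 0.1. They were 7 of 29305 with no filter and 1187 of 12508 with the replicate block. Other sphingolipid genes called in Huh7 numbered 9, and 0 with the GC and length correction, 2 with the filter at 0.1, 4 with the joint fit, 0 with no filter, 5 without the trend, 1 with the replicate block and 0 to 5 without 1 library. In MHCC97H they numbered 5, and 11, 2, 9, 1, 2, 2 and 0 to 10 in the same order. All-gene calls in MHCC97H were 680, and 1981, 532, 1672, 326, 634, 495 and 142 to 1604 in that order. In Huh7 the joint fit called 866 genes in all, and the fit without the trend 1694. Between control cells the list had 45 calls, and 41 to 44 without 1 library, beside 10730 to 11225 over all genes. For the difference between lines it had 7, and 3 to 11, beside 637 to 4670. The causes were not tested. Weaker filters add genes to the adjustment, and leaving out a library removes a sample, but the part of either was not measured. Replicate numbers did not pair the libraries: same-numbered deviations correlated at -0.02, -0.09 and 0.04 in Huh7 and -0.07, 0.31 and 0.13 in MHCC97H, so the replicate block rests on a shared number only. The 2 planned count models were not run, as the deposited unit is FPKM; voom on the recovered reads, chosen after seeing the data, took their place. Depth limits SPHK2 most.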
